A study of Mus musculus with 18 samples.

Results

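The 50 genes described here encode proteins of mitosis, from the kinases and cyclins that start it to the proteins that divide the cell. They were chosen by name, as genes of the G2 phase and mitosis, the spindle, the kinetochore and cytokinesis. Earlier results of these data were known when they were chosen. All 50 were found among the 50686 gene identifiers of the deposited count table, and all 50 passed the filter on low counts that left 13447 genes for testing. RNA was sequenced in bulk from primary microglia, the macrophages of the brain, grown from forebrains of C57BL/6 mice of postnatal day 2. There were 18 libraries, 3 for each of 6 genotypes. The genotypes were Tbk1+/-;Tak1ΔM/+;Ripk1D138N/+ (called Tbk1het Tak1het Ripk1het), Tbk1+/-;Tak1ΔM/+ (Tbk1het Tak1het), Tbk1+/-;Ripk1D138N/D138N (Tbk1het Ripk1hom), Tbk1+/- (Tbk1het), Tak1ΔM/+ (Tak1het) and wild type (WT). TBK1 and TAK1 both phosphorylate RIPK1 and so hold it in check, while D138N makes RIPK1 inactive as a kinase. The question posed by the study's title is how TBK1 limits death and inflammation driven by RIPK1. What ΔM stands for and what drives that deletion, and whether libraries of 1 genotype were made from different animals or cultures, are not given in the sources used here. P-values therefore measure the spread between libraries, which may be technical.

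Library totals ran from 8016559 counts (Tbk1het Tak1het replicate 2) up to 22989116 counts. Tbk1 RNA went against the label in 5 libraries. In the libraries labelled Tbk1het Tak1het Ripk1het it was at 123, 107 and 115 CPM (counts per 1000000 of the library total as scaled by edgeR's TMM method), and in those labelled Tbk1het Ripk1hom at 129.7, 54.9 and 131. It was at 55.05, 56.3 and 65.96 CPM in Tbk1het Tak1het, 50.5, 65.6 and 57.1 in Tbk1het and 106, 104 and 149 in WT. Map3k7, which encodes TAK1, had 15.8, 11.4 and 6.57 CPM in Tbk1het Tak1het, 9.98, 8.96 and 7.34 in Tak1het and 10.9, 10.4 and 19.2 in WT. Ripk1 had 61.9, 23.1 and 26.2 CPM in Tbk1het Tak1het Ripk1het, 48.96, 55.8 and 70.9 in Tbk1het Tak1het and 19.04, 16.96 and 23.8 in WT, and its D138N change cannot be read from gene counts. The microglial markers Csf1r, Tyrobp and C1qa were detected in all 18 libraries and reached 2656, 1868 and 1774 CPM at most, while P2ry12 reached at most 17.4 CPM and Tmem119 6.56. Astrocyte markers summed to at most 65.2 CPM, with Gfap at 3.87 or less. Mitochondrially encoded genes took 0.367% to 0.512% of the counts in Tbk1het Tak1het, 1.05% and 1.1% in 2 libraries of Tbk1het Tak1het Ripk1het, 1.82% to 2.2% in Tbk1het, and 0.671% to 1.62% in WT. That share was under 1% in 8 libraries, which include all 3 of Tbk1het Tak1het, replicate 1 of Tbk1het Tak1het Ripk1het, replicates 1 and 3 of Tbk1het Ripk1hom, replicate 1 of Tak1het and replicate 3 of WT. Y-linked genes summed to 68.0 to 89.9 CPM in Tbk1het Tak1het and to at most 2.78 CPM in Tak1het, so sex and genotype cannot be told apart in that comparison. The sums ran from 62.3 to 207 CPM in Tbk1het, 0 to 116 in WT, 0 to 45.7 in Tbk1het Ripk1hom and 0 to 65.9 in Tbk1het Tak1het Ripk1het. Y-linked RNA thus also differed in Tak1het over WT, in Tbk1het Ripk1hom over Tbk1het and among the genotypes of the interaction. WT and Tbk1het Tak1het Ripk1het each held a library with a sum of 0, and Tbk1het Tak1het did not. Comparisons of Tbk1het Tak1het with these genotypes are therefore not balanced for Y-linked RNA either. The part of sex in the results was not tested.

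Cells enter mitosis when CDK1, bound to cyclins A and B, outweighs the phosphatases that oppose it. Condensins then compact the chromosomes, kinesins and other microtubule proteins build the spindle, and kinetochores attach chromosomes to it. The spindle checkpoint holds back the anaphase-promoting complex until every chromosome is attached, and cytokinesis splits the cell. RNA of most of these genes is made in G2 phase and mitosis and is low in cells at rest. In cultured microglia, growth depends on colony stimulating factors, largely from the astrocyte layer below them. In bulk RNA, fewer dividing cells and less of these RNAs per dividing cell cannot be told apart.

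The promoters of many of these genes carry the sequence elements known as CHR (cell cycle genes homology region) and CCAAT box, bound by the MuvB complex with B-MYB or FOXM1 and by NF-Y. In RefSeq's promoter table (GRCm38.p6) 42 of the 50 genes were found. In the window from 250 bases before to 30 bases after the transcription start, on either strand, TTTGAA stood in 27 of 42 (64.3%), against 13.9% of the 9801 tested genes in the table and 19.5% of all 27025. TTTAAA stood in 10 (23.8%), against 10.6% of tested genes, and 33 (78.6%) had one or the other, against 22% of tested genes. The CCAAT box stood in 31 (73.8%), against 42.3% of tested genes, and 21 (50%) had at least 2, against 16.7%. Both kinds of element stood together in 27 (64.3%), against 8.86% of tested genes. Such matches are letters in a window and show no binding. A set of 3 promoters with both elements and 1 with neither are printed 5′ to 3′ on the gene's strand, with the matches on either strand in capitals. Top2a (chr11:99024160-99024439, minus strand) had 6 CCAAT boxes, Cdk1 (chr10:69352883-69353162, minus strand) had 3, and Cenpa (chr5:30666636-30666915, plus strand) had 2 along with TTTGAA and TTTAAA. In Cdk1 the matches to TTTGAA began at -71 and -15 from the transcription start. Mad2l1 (chr6:66534971-66535250, plus strand) had no match in its window. That window follows the RefSeq start and ends before the gene's start in GENCODE M21, at 66535390. The bases next to the GENCODE start were not searched.
Top2a: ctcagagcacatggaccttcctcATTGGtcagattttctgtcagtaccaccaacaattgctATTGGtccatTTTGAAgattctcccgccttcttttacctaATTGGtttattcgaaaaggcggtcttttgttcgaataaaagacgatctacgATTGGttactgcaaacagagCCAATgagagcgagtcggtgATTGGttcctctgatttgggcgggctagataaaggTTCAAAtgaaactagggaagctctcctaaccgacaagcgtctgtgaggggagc
Cdk1: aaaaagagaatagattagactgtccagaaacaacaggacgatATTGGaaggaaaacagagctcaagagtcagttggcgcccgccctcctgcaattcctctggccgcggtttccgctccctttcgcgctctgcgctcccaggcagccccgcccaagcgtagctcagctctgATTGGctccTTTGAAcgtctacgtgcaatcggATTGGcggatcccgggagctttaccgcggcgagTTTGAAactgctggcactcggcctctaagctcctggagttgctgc
Cenpa: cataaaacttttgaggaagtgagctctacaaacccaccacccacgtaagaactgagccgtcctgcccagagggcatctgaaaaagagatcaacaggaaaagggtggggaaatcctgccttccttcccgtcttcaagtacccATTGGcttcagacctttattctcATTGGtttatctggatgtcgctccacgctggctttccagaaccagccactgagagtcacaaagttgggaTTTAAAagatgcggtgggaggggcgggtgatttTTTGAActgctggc
Mad2l1: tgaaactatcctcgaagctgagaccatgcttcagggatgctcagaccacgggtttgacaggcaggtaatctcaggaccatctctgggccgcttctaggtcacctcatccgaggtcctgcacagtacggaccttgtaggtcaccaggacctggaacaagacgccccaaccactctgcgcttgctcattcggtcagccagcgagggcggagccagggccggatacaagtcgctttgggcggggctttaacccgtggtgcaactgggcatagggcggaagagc

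Summed over the 50 genes, mitosis RNA was lowest in Tbk1het Tak1het and highest in Tbk1het. The sum was 634, 888 and 717 CPM in Tbk1het Tak1het Ripk1het, 224, 222 and 221 in Tbk1het Tak1het, 673, 1013 and 622 in Tbk1het Ripk1hom, 1948, 673 and 1996 in Tbk1het, 341, 680.5 and 636 in Tak1het, and 768, 949 and 750.3 in WT. The 3 Tbk1het Tak1het libraries lay close together and below every other library. Tbk1het replicates 1 and 3 lay above every other library, and Tbk1het replicate 2 lay below all 3 WT libraries. The mean was 746 ± 129 CPM (SD, n = 3) in Tbk1het Tak1het Ripk1het, 223 ± 1.54 in Tbk1het Tak1het, 769 ± 212 in Tbk1het Ripk1hom, 1539 ± 750.4 in Tbk1het, 553 ± 184 in Tak1het and 822 ± 110.0 in WT. Tbk1het Tak1het thus held 27.1% of the WT mean, and Tbk1het 187%. Gene by gene, the lowest of the 6 means was in Tbk1het Tak1het for 49 members (in Tak1het for Ncapd2). The highest mean was in Tbk1het for 48 members and in Tbk1het Tak1het Ripk1het for Kif23 and Kif4.

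**Figure D1:**
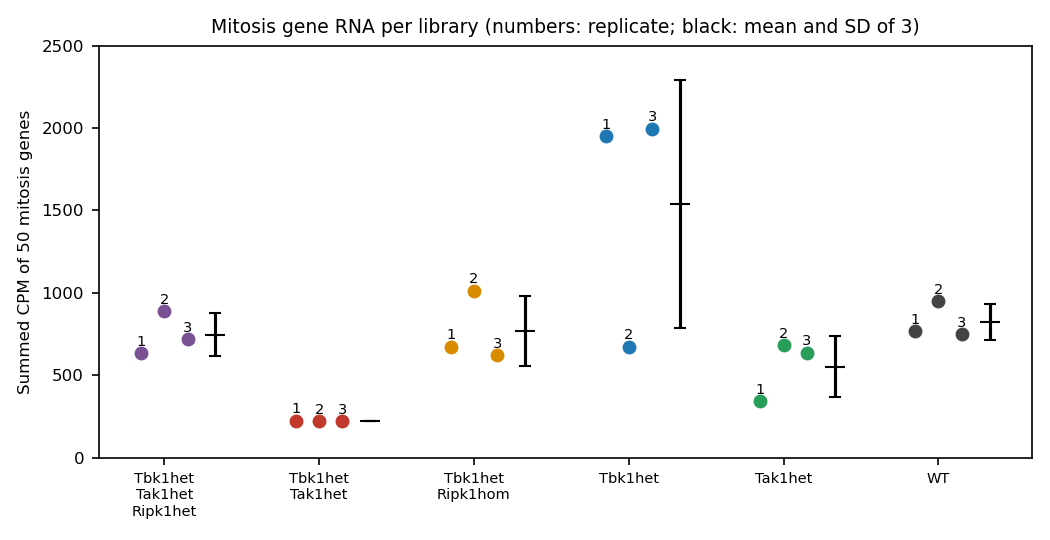
Summed CPM of the 50 mitosis genes (y axis) in each of the 18 libraries, by genotype (x axis); points are libraries with their replicate number, and the black mark and bar are the mean and SD of 3. The Tbk1het Tak1het libraries sit between 221 and 224 CPM, below the WT libraries at 750.3 to 949, and the Tbk1het libraries are spread from 673 to 1996.

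The overall test of the 6 genotypes called 39 of 50 members, against 7.18% of all tested genes, and 24, 23 and 24 without Tbk1het Tak1het replicate 1, 2 and 3. A covariate for the mitochondrial share left 7, and limma-voom called 18. Calls here and in what follows are genes with an adjusted p under 0.05 in the quasi-likelihood test of edgeR, adjusted by the Benjamini-Hochberg method over all 13447 genes. Shares of all tested genes belong to the edgeR fit of all 18 libraries by genotype alone. They were not computed for other settings or with libraries left out. A log2 fold change is that of the first genotype named over the second.

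**Figure D2:**
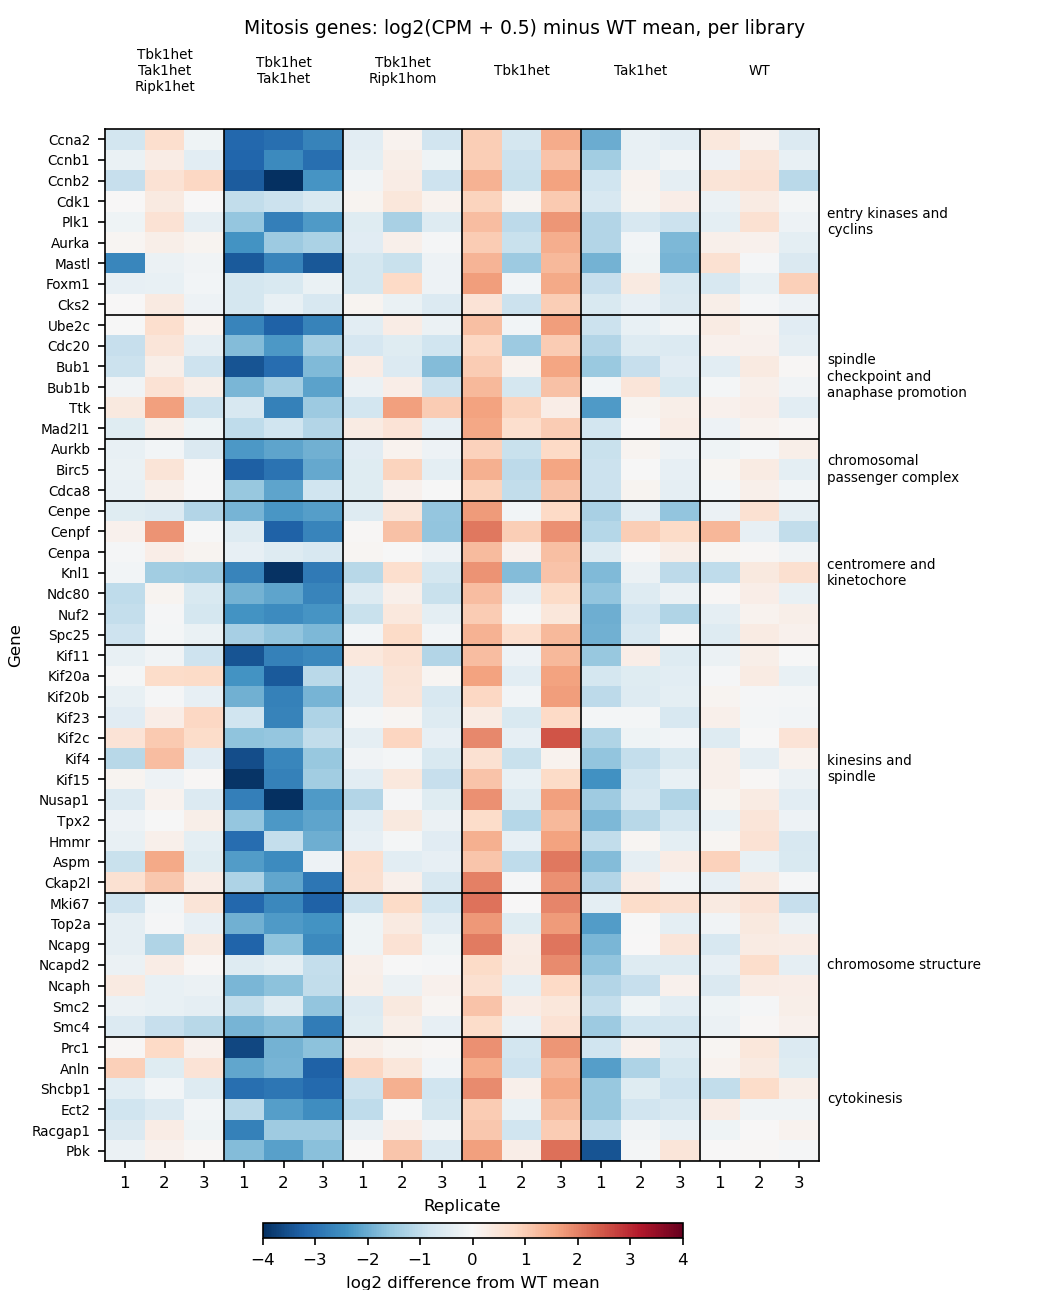
Heat map of log2(CPM + 0.5) minus the WT mean for the 50 genes (rows, in 7 roles) in the 18 libraries (columns, by genotype and replicate); blue is below and red above the WT mean, with colours limited to 4 in each direction. The Tbk1het Tak1het columns are blue in nearly all rows, the columns of Tbk1het replicates 1 and 3 are red, and Tak1het replicate 1 is below the lowest WT library for 46 genes.

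In Tbk1het Tak1het over WT, mitosis genes fell in every role. Of 50 members, 35 were called lower, against 3.9% of all tested genes, and the log2 fold change was below 0 for all 50. Their median log2 fold change was -2.26, and that of all tested genes was 0.00. The libraries of the 2 genotypes did not overlap for 47 members, all lower in Tbk1het Tak1het, against 14.4% of all tested genes lower without overlap. The exceptions were Cenpf, Aspm and Foxm1. The largest fold changes were those of Mastl (-4.49), which encodes a kinase that holds back the phosphatase opposing CDK1, of Knl1 (-4.02), which encodes a scaffold of the kinetochore, and of Shcbp1 (-3.71), which encodes a protein of the midbody. Mastl, at 0.212, 0.676 and 0.199 CPM in Tbk1het Tak1het against 10.8, 6.59 and 4.46 in WT, was close there to the 3 counts (0.137 to 0.338 CPM) taken as the floor of a library. Knl1 had 0 counts in Tbk1het Tak1het replicate 2, so its fold change rests in part on that floor. The smallest was that of Cenpa (-0.51, adjusted p = 0.234). The count of calls was 17 without WT replicate 2 and 20, 22 and 21 without Tbk1het Tak1het replicate 1, 2 and 3, with medians from -2.34 to -2.05. A covariate for the mitochondrial share left 11 calls (median -1.59), and within the 8 libraries with a share under 1% the median was -2.03. WT has 1 library among these 8, so the count of calls there is not given. By limma-voom 8 members were called, and by DESeq2 42.

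In Tbk1het Tak1het Ripk1het over Tbk1het Tak1het, genes of every role rose. Of 50 members, 28 were called higher, against 1.84% of all tested genes, and none of the 50 had a fold change below 0. The median log2 fold change was 2.12 and that of all tested genes 0.00. The libraries did not overlap for 47 members, all higher in Tbk1het Tak1het Ripk1het, against 12.8% of all tested genes, and Aspm, Foxm1 and Ttk were the exceptions. Ccnb2 (3.73), Mastl (3.71) and Ube2c (3.45) had the largest fold changes among called members, and Foxm1 (0.35, adjusted p = 0.855) had the smallest of all. Mastl was close to the floor of 3 counts in Tbk1het Tak1het and at 0.711 CPM in Tbk1het Tak1het Ripk1het replicate 1. The Mastl call ended for 5 of the 6 libraries left out singly (edgeR adjusted p from 0.0892 to 0.2). That of Ccnb2 ended for 2 (0.0578 and 0.0681). The number of calls was 4, 6 and 15 without Tbk1het Tak1het replicate 1, 2 and 3 and 6 and 10 without Tbk1het Tak1het Ripk1het replicate 2 and 3, while the median stayed between 1.9 and 2.27. All libraries with the Tbk1het Tak1het Ripk1het label were at WT-like Tbk1 RNA, so this comparison is of libraries that differ in Tbk1 level as well as in the Ripk1 label. Within the 8 libraries of low mitochondrial share the median was 1.85. They hold 1 of the 3 Tbk1het Tak1het Ripk1het libraries, so the count of calls there is not given. A covariate for the share left 19 calls with a median of 1.81. By limma-voom 1 member was called. Over WT, Tbk1het Tak1het Ripk1het had 0 members called by edgeR, DESeq2 or limma-voom, 1 with an unadjusted p under 0.05, and a median of -0.06 over a range from -1.09 to 0.79; of all tested genes 0% were called in either direction. Smc4, Smc2 and Cenpe were lower and Kif2c higher than in WT without overlap (7.52% of all tested genes were lower and 6.73% higher without overlap).

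**Figure D3:**
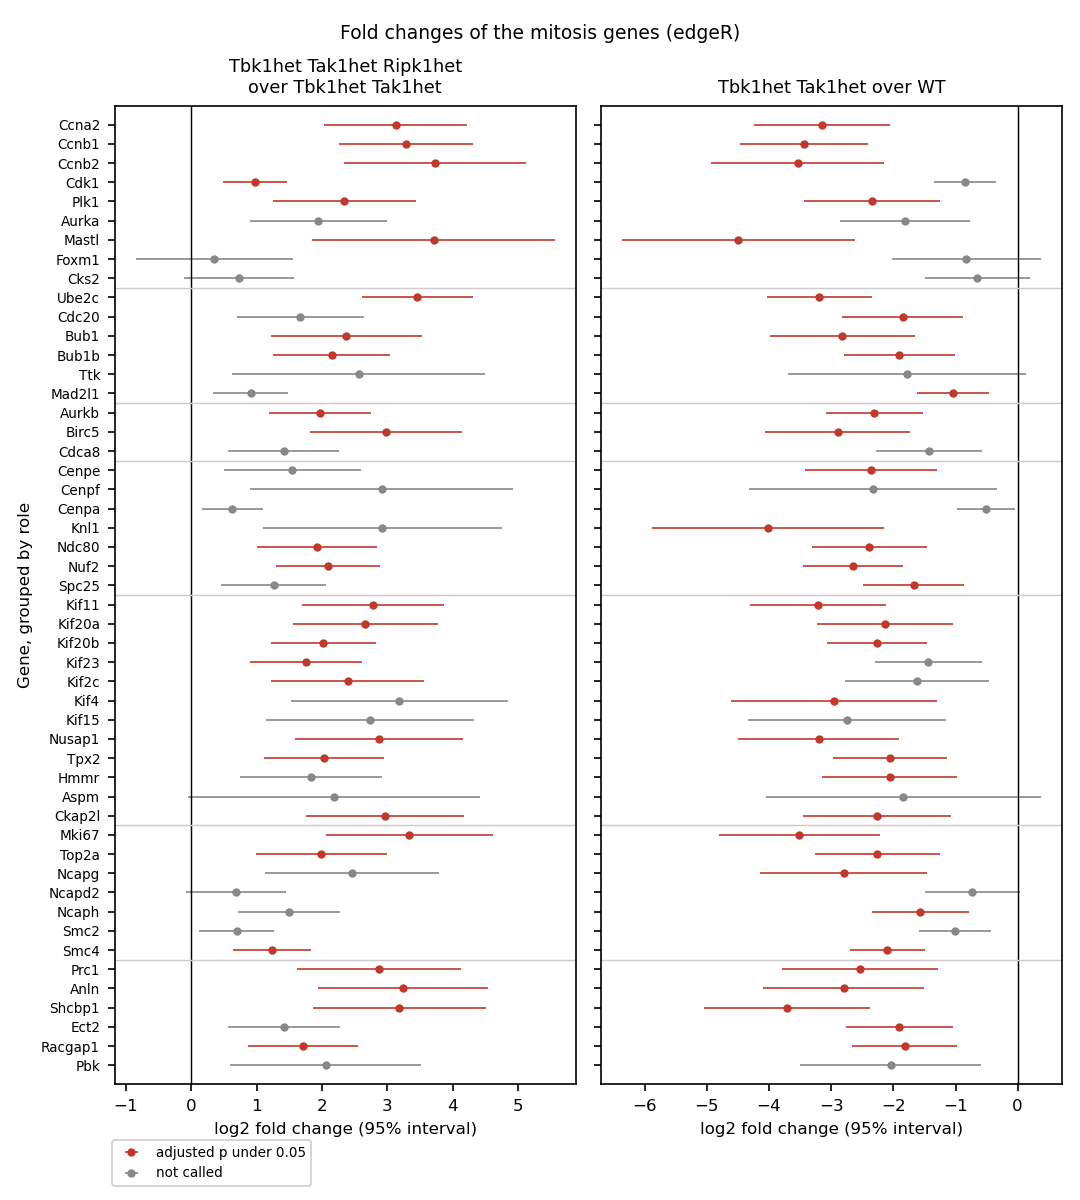
Log2 fold changes (x axes) of the 50 genes (rows, grouped by role) in Tbk1het Tak1het Ripk1het over Tbk1het Tak1het (left) and in Tbk1het Tak1het over WT (right). Points are edgeR estimates, bars approximate 95% intervals of 1.96 SE to each side, and red marks an adjusted p under 0.05. All points lie above 0 on the left and below 0 on the right.

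The role of mitotic entry held 9 genes, which are kinases and cyclins along with Foxm1 and Cks2. Of these 9, 5 were called lower in Tbk1het Tak1het over WT (Mastl, Ccnb2, Ccnb1, Ccna2 and Plk1). In Tbk1het Tak1het Ripk1het over Tbk1het Tak1het, 6 were called higher. The B cyclins had larger log2 fold changes against WT than the kinase they bind, though the difference was not tested. Ccnb1 had -3.44, Ccnb2 -3.54 and Cdk1 -0.85. Cdk1 (ENSMUSG00000019942, chromosome 10, 69335146 to 69352938) encodes the kinase that drives entry into mitosis. Cdk1 had 36.02, 45.5 and 35.9 CPM in Tbk1het Tak1het Ripk1het, 17.6, 19.1 and 22.9 in Tbk1het Tak1het, 37.9, 48.4 and 39.5 in Tbk1het Ripk1hom, 66.1, 38.5 and 73.6 in Tbk1het, 22.5, 38.4 and 42.7 in Tak1het, and 29.9, 44.3 and 33.5 in WT. Every Tbk1het Tak1het library was below every WT library, while Tak1het and WT overlapped. Cdk1 was not called in Tbk1het Tak1het over WT (log2 -0.85, SE 0.25, adjusted p = 0.0538) and rose in Tbk1het Tak1het Ripk1het over Tbk1het Tak1het (log2 0.97, SE 0.25, adjusted p = 0.0493). The rise lost its call without Tbk1het Tak1het Ripk1het replicate 1, 2 or 3 and without Tbk1het Tak1het replicate 1, 2 or 3 (adjusted p from 0.0554 to 0.215). Ccna2 (ENSMUSG00000027715, chromosome 3, 36564865 to 36572150) encodes cyclin A2, which activates CDK2 in S phase and CDK1 in G2 phase. Ccna2 had 16.2, 42.9 and 23.9 CPM in Tbk1het Tak1het Ripk1het, 2.65, 2.93 and 3.83 in Tbk1het Tak1het, 19.9, 29.7 and 15.6 in Tbk1het Ripk1hom, 54.2, 16.5 and 76.2 in Tbk1het, 6.42, 22.02 and 20.1 in Tak1het, and 36.1, 29.9 and 18.2 in WT. The Tbk1het Tak1het libraries were far below the rest, and Tak1het replicate 1 was next. The gene fell in Tbk1het Tak1het over WT (log2 -3.15, SE 0.56, adjusted p = 0.00402) and rose in Tbk1het Tak1het Ripk1het over Tbk1het Tak1het (log2 3.12, SE 0.56, adjusted p = 0.00651). Each of the 6 libraries could be left out without ending the call of the fall, and the rise kept its call with each library left out. Ccnb1 had 0.848, 1.58 and 0.995 CPM in Tbk1het Tak1het, against 9.996, 16.5 and 9.33 in WT. The groups were separate, and both the fall (log2 -3.44, SE 0.52, adjusted p = 0.00158) and the rise in Tbk1het Tak1het Ripk1het (log2 3.29, SE 0.52, adjusted p = 0.00278) kept their calls with each library left out. Aurka, the kinase of centrosomes and spindle poles, had -1.82 (adjusted p = 0.051) and Foxm1, a transcription factor of G2 genes, -0.83 (adjusted p = 0.49). Cks2, a small subunit of CDK complexes, had -0.65 (adjusted p = 0.434).

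In the spindle checkpoint and anaphase promotion, 5 of 6 members fell in Tbk1het Tak1het over WT (Ube2c, Bub1, Bub1b, Cdc20 and Mad2l1), and 3 rose in Tbk1het Tak1het Ripk1het over Tbk1het Tak1het. Ube2c had 1.64, 0.901 and 1.59 CPM in Tbk1het Tak1het, against 16.1, 14.1 and 9.102 in WT. Ube2c encodes the enzyme that starts ubiquitin chains for the anaphase-promoting complex, and its fall (log2 -3.19, SE 0.43, adjusted p = 0.000665) and its rise in Tbk1het Tak1het Ripk1het (log2 3.45, SE 0.43, adjusted p = 0.000404) had the smallest adjusted p of the 50 members in both comparisons. Both kept their calls with each library left out. Mad2l1 (ENSMUSG00000029910, chromosome 6, 66535390 to 66547220) encodes MAD2, the checkpoint protein that binds CDC20. Mad2l1 had 15.5, 25.9 and 19.6 CPM in Tbk1het Tak1het Ripk1het, 10.8, 12.5 and 9.45 in Tbk1het Tak1het, 27.9, 32.6 and 17.6 in Tbk1het Ripk1hom, 65.97, 35.5 and 45 in Tbk1het, 13.1, 22.5 and 27.2 in Tak1het, and 19.2, 24.7 and 22.8 in WT. Tbk1het Tak1het lay below WT without overlap, and all 3 Tbk1het libraries lay above WT. It fell in Tbk1het Tak1het over WT (log2 -1.03, SE 0.30, adjusted p = 0.0461) and did not pass the test in Tbk1het Tak1het Ripk1het over Tbk1het Tak1het (log2 0.91, SE 0.30, adjusted p = 0.127). The call against WT ended without Tbk1het Tak1het replicate 1, 2 or 3 and without WT replicate 1, 2 or 3 (adjusted p from 0.0692 to 0.178). Bub1b (ENSMUSG00000040084, chromosome 2, 118598211 to 118641591) encodes BUBR1, a checkpoint protein that inhibits the anaphase-promoting complex. Bub1b had 12.8, 21.1 and 16.6 CPM in Tbk1het Tak1het Ripk1het, 3.603, 5.18 and 2.83 in Tbk1het Tak1het, 12.03, 17.1 and 7.51 in Tbk1het Ripk1hom, 35.2, 8.56 and 32.7 in Tbk1het, 13.1, 19.9 and 9.12 in Tak1het, and 13.2, 16.5 and 12.9 in WT. Tbk1het Tak1het lay below every other library, and Tbk1het split into 2 high libraries and 1 below WT. Bub1b fell in Tbk1het Tak1het over WT (log2 -1.90, SE 0.45, adjusted p = 0.0194) and rose in Tbk1het Tak1het Ripk1het over Tbk1het Tak1het (log2 2.15, SE 0.45, adjusted p = 0.0167). Against WT the call ended without Tbk1het Tak1het replicate 1 or 3 and without WT replicate 2 (adjusted p from 0.0675 to 0.104), and the rise lost its call without Tbk1het Tak1het Ripk1het replicate 2 or 3 and without Tbk1het Tak1het replicate 1 or 3 (adjusted p from 0.0639 to 0.0896). Ttk, the kinase that starts checkpoint signalling, had -1.78 (adjusted p = 0.327) against WT, with 0 counts in Tbk1het Tak1het replicate 2.

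Of the 3 members of the chromosomal passenger complex, which corrects wrong attachments, Birc5 and Aurkb fell in Tbk1het Tak1het over WT and rose in Tbk1het Tak1het Ripk1het over Tbk1het Tak1het. Birc5 (ENSMUSG00000017716, chromosome 11, 117849251 to 117855743) encodes survivin, which brings the complex to centromeres. Birc5 had 14.3, 24.6 and 17.2 CPM in Tbk1het Tak1het Ripk1het, 1.32, 1.802 and 3.78 in Tbk1het Tak1het, 12.2, 32.1 and 13.03 in Tbk1het Ripk1hom, 47.04, 7.99 and 52.3 in Tbk1het, 9.201, 16.98 and 13.6 in Tak1het, and 18.03, 21.7 and 13.04 in WT. Tbk1het Tak1het was below all other libraries, and the 2 high Tbk1het libraries were above all of them. The gene fell in Tbk1het Tak1het over WT (log2 -2.90, SE 0.59, adjusted p = 0.00871) and rose in Tbk1het Tak1het Ripk1het over Tbk1het Tak1het (log2 2.98, SE 0.59, adjusted p = 0.0121). Each of the 6 libraries could be left out without ending the call of the fall, and the rise lost its call without Tbk1het Tak1het Ripk1het replicate 2 and without Tbk1het Tak1het replicate 1 or 2 (adjusted p from 0.0572 to 0.08). Cdca8 (ENSMUSG00000028873, chromosome 4, 124918465 to 124939311) encodes borealin, which links survivin to the rest of the complex. Cdca8 had 16.4, 23.2 and 20.5 CPM in Tbk1het Tak1het Ripk1het, 6.68, 4.28 and 11.2 in Tbk1het Tak1het, 14.2, 22.8 and 20.1 in Tbk1het Ripk1hom, 38.02, 9.81 and 45.3 in Tbk1het, 10.8, 21.6 and 15.4 in Tak1het, and 18.9, 23.3 and 18.6 in WT. Tbk1het Tak1het lay below WT without overlap, but so did Tbk1het replicate 2. It passed the test neither in Tbk1het Tak1het over WT (log2 -1.43, SE 0.43, adjusted p = 0.0592) nor in Tbk1het Tak1het Ripk1het over Tbk1het Tak1het (log2 1.41, SE 0.43, adjusted p = 0.103). Aurkb, the kinase of the complex, fell in Tbk1het Tak1het over WT (log2 -2.31, SE 0.40, adjusted p = 0.00346) and rose in Tbk1het Tak1het Ripk1het over Tbk1het Tak1het (log2 1.96, SE 0.40, adjusted p = 0.0134). The first call remained with each library left out, and the second ended without Tbk1het Tak1het Ripk1het replicate 2 and without Tbk1het Tak1het replicate 1 or 2 (adjusted p from 0.0619 to 0.08).

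Of 7 centromere and kinetochore genes, 5 fell in Tbk1het Tak1het over WT (Knl1, Nuf2, Ndc80, Cenpe and Spc25), and 2 (Nuf2 and Ndc80) rose in Tbk1het Tak1het Ripk1het over Tbk1het Tak1het. Cenpa (ENSMUSG00000029177, chromosome 5, 30666777 to 30674830) encodes the histone H3 variant that marks centromeres. Cenpa had 32.6, 41.2 and 36.7 CPM in Tbk1het Tak1het Ripk1het, 26.7, 23.4 and 21.4 in Tbk1het Tak1het, 36.1, 33.3 and 29.7 in Tbk1het Ripk1hom, 82.02, 38.6 and 79.3 in Tbk1het, 23.7, 35.1 and 40.4 in Tak1het, and 35.8, 35.3 and 31.02 in WT. Tbk1het Tak1het was below WT without overlap, with the smallest fold change of the 50 members, and all Tbk1het libraries were above WT. Cenpa passed the test neither in Tbk1het Tak1het over WT (log2 -0.51, SE 0.24, adjusted p = 0.234) nor in Tbk1het Tak1het Ripk1het over Tbk1het Tak1het (log2 0.63, SE 0.24, adjusted p = 0.196). Spc25 (ENSMUSG00000005233, chromosome 2, 69193895 to 69206194) encodes a subunit of the NDC80 complex, which holds microtubules. Spc25 had 10.1, 17.4 and 15.1 CPM in Tbk1het Tak1het Ripk1het, 6.99, 5.86 and 4.88 in Tbk1het Tak1het, 16.9, 31.3 and 16.9 in Tbk1het Ripk1hom, 48.9, 29.1 and 45.5 in Tbk1het, 4.51, 11.4 and 18.7 in Tak1het, and 12.7, 23.1 and 20.7 in WT. Tbk1het Tak1het was below WT without overlap, and Tak1het replicate 1 was the lowest library of all. The gene fell in Tbk1het Tak1het over WT (log2 -1.67, SE 0.41, adjusted p = 0.023) and did not pass the test in Tbk1het Tak1het Ripk1het over Tbk1het Tak1het (log2 1.26, SE 0.41, adjusted p = 0.124). The fall lost its call without Tbk1het Tak1het replicate 1, 2 or 3 and without WT replicate 2 or 3 (adjusted p from 0.0544 to 0.112). The other subunits of that complex in the set had larger fold changes against WT, at -2.64 for Nuf2 and -2.38 for Ndc80, and both calls remained with each of the 6 libraries left out. Cenpf had -2.32 (adjusted p = 0.204), with 0 counts in Tbk1het Tak1het replicate 2.

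Of the 12 kinesins and spindle proteins, 8 fell in Tbk1het Tak1het over WT (Kif11, Nusap1, Kif4, Ckap2l, Kif20b, Kif20a, Hmmr and Tpx2), and 8 rose in Tbk1het Tak1het Ripk1het over Tbk1het Tak1het. Tpx2 (ENSMUSG00000027469, chromosome 2, 152847964 to 152895321) encodes the protein that activates Aurora A and nucleates spindle microtubules. Tpx2 had 21.8, 24.8 and 29.9 CPM in Tbk1het Tak1het Ripk1het, 8.32, 4.73 and 5.47 in Tbk1het Tak1het, 18.5, 33.3 and 21.2 in Tbk1het Ripk1hom, 42.1, 11.01 and 62.6 in Tbk1het, 6.83, 11.4 and 15.02 in Tak1het, and 21, 34.97 and 21.6 in WT. The Tbk1het Tak1het libraries were the lowest along with Tak1het replicate 1, and no Tak1het library reached the lowest WT library. It fell in Tbk1het Tak1het over WT (log2 -2.05, SE 0.47, adjusted p = 0.0155) and rose in Tbk1het Tak1het Ripk1het over Tbk1het Tak1het (log2 2.03, SE 0.47, adjusted p = 0.0252). The call against WT ended without Tbk1het Tak1het replicate 2 or 3 and without WT replicate 2 (adjusted p from 0.0645 to 0.0795), and the rise lost its call without Tbk1het Tak1het Ripk1het replicate 2 or 3 and without Tbk1het Tak1het replicate 1, 2 or 3 (adjusted p from 0.0681 to 0.122). Kif11 (ENSMUSG00000012443, chromosome 19, 37376403 to 37421859) encodes the kinesin that pushes spindle poles apart. Kif11 had 12.9, 14.7 and 8.86 CPM in Tbk1het Tak1het Ripk1het, 1.01, 2.03 and 2.29 in Tbk1het Tak1het, 21.6, 24.9 and 6.92 in Tbk1het Ripk1hom, 38.9, 13.98 and 39.96 in Tbk1het, 5.28, 19.4 and 11.2 in Tak1het, and 13.5, 19.2 and 16.1 in WT. Tbk1het Tak1het was below every other library. Kif11 fell in Tbk1het Tak1het over WT (log2 -3.21, SE 0.56, adjusted p = 0.00347) and rose in Tbk1het Tak1het Ripk1het over Tbk1het Tak1het (log2 2.78, SE 0.55, adjusted p = 0.0121). With each of the 6 libraries left out the fall kept its call, and the rise lost its call without Tbk1het Tak1het Ripk1het replicate 2 and without Tbk1het Tak1het replicate 1 or 2 (adjusted p from 0.0546 to 0.08). Kif4 and Kif15 had 0 counts in Tbk1het Tak1het replicate 1, and Nusap1 and Aspm in replicate 2. Kif2c, a kinesin that takes microtubules apart, had -1.62 against WT (adjusted p = 0.117) and rose in Tbk1het Tak1het Ripk1het over Tbk1het Tak1het (log2 2.39, SE 0.60, adjusted p = 0.04), a call that ended without Tbk1het Tak1het Ripk1het replicate 2 or 3 and without Tbk1het Tak1het replicate 1, 2 or 3 (adjusted p from 0.0893 to 0.182).

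Of 7 genes of chromosome structure, 5 fell in Tbk1het Tak1het over WT (Mki67, Ncapg, Top2a, Smc4 and Ncaph), and Mki67, Top2a and Smc4 rose in Tbk1het Tak1het Ripk1het over Tbk1het Tak1het. Mki67 (ENSMUSG00000031004, chromosome 7, 135689784 to 135716361) encodes Ki-67, the coat protein of mitotic chromosomes and a common marker of dividing cells. Mki67 had 8.47, 14.04 and 21.96 CPM in Tbk1het Tak1het Ripk1het, 1.27, 2.14 and 1.19 in Tbk1het Tak1het, 8.26, 26.1 and 8.58 in Tbk1het Ripk1hom, 70.9, 15.3 and 61.04 in Tbk1het, 11.5, 25.7 and 23.9 in Tak1het, and 19.8, 22.6 and 7.88 in WT. The 3 Tbk1het Tak1het libraries were the lowest of all, and WT replicate 3 came next. The gene fell in Tbk1het Tak1het over WT (log2 -3.51, SE 0.66, adjusted p = 0.00502) and rose in Tbk1het Tak1het Ripk1het over Tbk1het Tak1het (log2 3.34, SE 0.66, adjusted p = 0.011). Each of the 6 libraries could be left out without ending the call of the fall, and the rise lost its call without Tbk1het Tak1het Ripk1het replicate 3 and without Tbk1het Tak1het replicate 1 or 3 (adjusted p from 0.0637 to 0.0736). Top2a (ENSMUSG00000020914, chromosome 11, 98992943 to 99024189) encodes the topoisomerase that untangles DNA before chromosomes part. Top2a had 34.01, 42.5 and 34.97 CPM in Tbk1het Tak1het Ripk1het, 11.3, 8.67 and 8.01 in Tbk1het Tak1het, 38.6, 56.1 and 32.5 in Tbk1het Ripk1hom, 146, 31.1 and 143 in Tbk1het, 8.88, 42.98 and 33.3 in Tak1het, and 39.7, 57.5 and 36.9 in WT. Tbk1het Tak1het was below WT without overlap, and Tak1het replicate 1 lay in its range. It fell in Tbk1het Tak1het over WT (log2 -2.26, SE 0.51, adjusted p = 0.0156) and rose in Tbk1het Tak1het Ripk1het over Tbk1het Tak1het (log2 1.99, SE 0.51, adjusted p = 0.0474). The call against WT ended without Tbk1het Tak1het replicate 2 or 3 and without WT replicate 2 (adjusted p from 0.0607 to 0.0824), and the rise lost its call without Tbk1het Tak1het Ripk1het replicate 1, 2 or 3 and without Tbk1het Tak1het replicate 1, 2 or 3 (adjusted p from 0.056 to 0.167). Smc4 (ENSMUSG00000034349, chromosome 3, 69004738 to 69034623) encodes a core subunit of the condensins and had the highest WT level of the 50 per kilobase of exon. Smc4 had 57.7, 44.5 and 38.6 CPM in Tbk1het Tak1het Ripk1het, 22.9, 25.8 and 11.7 in Tbk1het Tak1het, 60.01, 100.3 and 67.6 in Tbk1het Ripk1hom, 141, 71.4 and 126 in Tbk1het, 30.8, 48.7 and 50.4 in Tak1het, and 71.9, 88.2 and 96 in WT. All 3 libraries of Tbk1het Tak1het, of Tbk1het Tak1het Ripk1het and of Tak1het were below the lowest WT library. Smc4 fell in Tbk1het Tak1het over WT (log2 -2.10, SE 0.31, adjusted p = 0.00133) and rose in Tbk1het Tak1het Ripk1het over Tbk1het Tak1het (log2 1.24, SE 0.30, adjusted p = 0.0368). With each of the 6 libraries left out the fall kept its call, and the rise lost its call without Tbk1het Tak1het Ripk1het replicate 1, 2 or 3 and without Tbk1het Tak1het replicate 1, 2 or 3 (adjusted p from 0.062 to 0.155). Its partner Smc2 had -1.01 against WT (adjusted p = 0.0511), and Ncapd2 had -0.73 (adjusted p = 0.311). Per kilobase of exon, mean WT levels ran from 16.4 CPM for Smc4, 12.1 for Ccnb2 and 8.55 for Cdc20 down to 0.353 for Cenpf and 0.234 for Aspm.

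Of 6 cytokinesis genes, 5 fell in Tbk1het Tak1het over WT (Shcbp1, Anln, Prc1, Ect2 and Racgap1), and 4 rose in Tbk1het Tak1het Ripk1het over Tbk1het Tak1het (Anln, Shcbp1, Prc1 and Racgap1). Racgap1 (ENSMUSG00000023015, chromosome 15, 99620496 to 99651656) encodes a subunit of centralspindlin, which bundles microtubules between the parting chromosomes. Racgap1 had 18.4, 34.3 and 24.8 CPM in Tbk1het Tak1het Ripk1het, 3.81, 10.02 and 10.1 in Tbk1het Tak1het, 23.6, 33.7 and 24.9 in Tbk1het Ripk1hom, 58.4, 15.8 and 56.8 in Tbk1het, 13.5, 24.9 and 22.4 in Tak1het, and 24.6, 28.1 and 30.6 in WT. Tbk1het Tak1het was below every other library, and Tak1het replicate 1 was next. The gene fell in Tbk1het Tak1het over WT (log2 -1.82, SE 0.43, adjusted p = 0.0186) and rose in Tbk1het Tak1het Ripk1het over Tbk1het Tak1het (log2 1.71, SE 0.43, adjusted p = 0.0404). The fall lost its call without Tbk1het Tak1het replicate 1 and without WT replicate 2 (adjusted p from 0.0531 to 0.0851), and the rise lost its call without Tbk1het Tak1het Ripk1het replicate 2 or 3 and without Tbk1het Tak1het replicate 1, 2 or 3 (adjusted p from 0.0824 to 0.19). Ect2 (ENSMUSG00000027699, chromosome 3, 27097222 to 27153878) encodes the exchange factor that activates RhoA at the cleavage furrow. Ect2 had 9.66, 11.3 and 15.7 CPM in Tbk1het Tak1het Ripk1het, 7.74, 3.27 and 2.59 in Tbk1het Tak1het, 8.21, 16.7 and 10.1 in Tbk1het Ripk1hom, 34.9, 13.9 and 41.9 in Tbk1het, 5.603, 9.84 and 10.8 in Tak1het, and 20.9, 15.2 and 15.4 in WT. Tbk1het Tak1het lay below WT without overlap but overlapped Tak1het. It fell in Tbk1het Tak1het over WT (log2 -1.90, SE 0.44, adjusted p = 0.0171) and did not pass the test in Tbk1het Tak1het Ripk1het over Tbk1het Tak1het (log2 1.42, SE 0.44, adjusted p = 0.104). The call against WT ended without Tbk1het Tak1het replicate 2 or 3 and without WT replicate 1 (adjusted p from 0.0604 to 0.0952). Pbk, which encodes a mitotic kinase, had -2.04 against WT (adjusted p = 0.116).

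**Figure D4:**
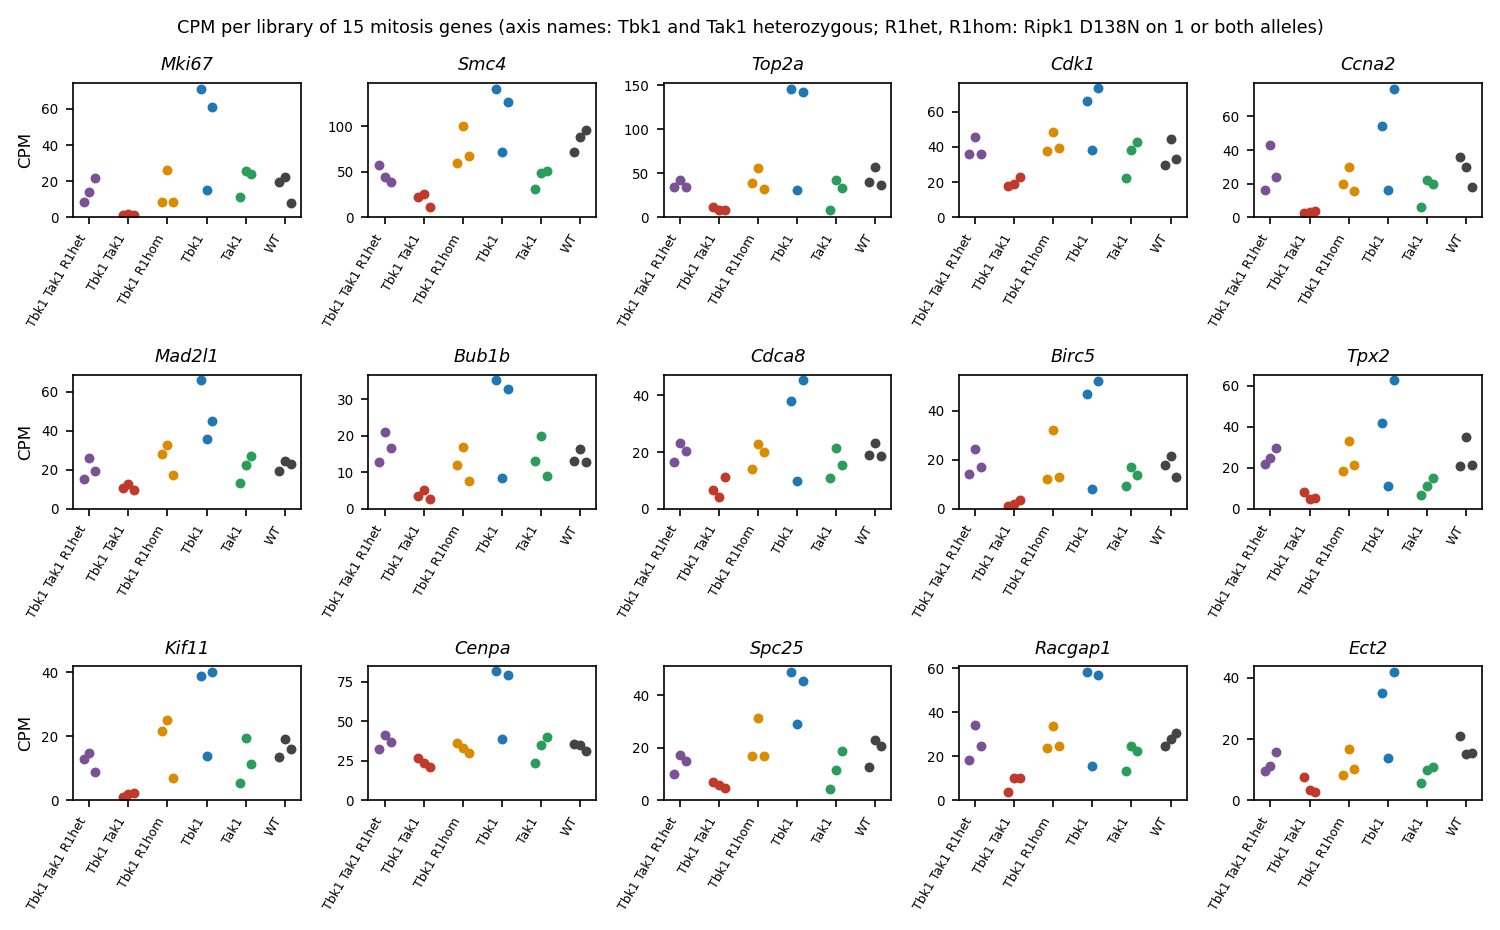
CPM (y axes, from 0) of 15 mitosis genes in each of the 18 libraries, by genotype (x axes); each point is a library. In every panel the Tbk1het Tak1het points lie below the WT points, and at least 2 of the 3 Tbk1het points lie above the WT points (all 3 for Mad2l1, Cenpa and Spc25).

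Each single heterozygote was set against WT and against Tbk1het Tak1het. In Tbk1het over WT, edgeR called 0 of 50 members, DESeq2 2 and limma-voom 0, against 0.0223% of all tested genes called higher and 0.0297% called lower by edgeR; 18 members had an unadjusted p under 0.05. All 50 fold changes were above 0, with a median of 0.96, and 6 members were higher without overlap (6.28% of all tested genes), namely Cenpa, Smc2, Pbk, Ttk, Mad2l1 and Spc25. Replicates 1 and 3 exceeded the highest WT library for 50 and 49 members, and replicate 2 for 6, while replicate 2 was below the lowest WT library for 27. Without replicate 2, 8 members were called, among them Cenpa (log2 1.25, adjusted p = 0.00246), Mad2l1 (1.32, 0.0265 as adjusted p), Top2a (1.70, 0.0316), Cdk1 (0.96, 0.0369) and Mki67 (1.99, 0.0486). The share of all tested genes called in that fit was not computed. Markers of border macrophages and monocytes (Mrc1, Pf4, Lyve1, F13a1 and 3 others, 7 in all) summed to 1167, 586 and 1342 CPM in Tbk1het replicates 1, 2 and 3, against 444, 446 and 650.3 in WT, so they were high in the libraries with high mitosis sums; Ly6c2 was at 0 in 15 libraries and their part in the result was not tested. The mitochondrial share was 2.2%, 1.82% and 2% in the same Tbk1het libraries. With a covariate for that share the median was 0.35, and edgeR called 0 members, with 2 at an unadjusted p under 0.05; the fold changes of Ccna2 and Tpx2 were then below 0.

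In Tak1het over WT, 0 members were called by edgeR, DESeq2 or limma-voom, against 0.00744% of all tested genes called lower and 0.00744% higher by edgeR, and 7 had an unadjusted p under 0.05. The fold change was below 0 for 48 members, with a median of -0.59, and above 0 for Mki67 (0.28) and Cenpf (0.14). The libraries did not overlap for 15 members, all lower in Tak1het, against 7.33% of all tested genes. Replicate 1 was below the lowest WT library for 46 members, replicate 2 for 19 and replicate 3 for 27. Without replicate 1 the median was -0.31. The mitochondrial share was 0.453%, 1.41% and 1.5% in Tak1het replicates 1, 2 and 3. Replicate 1 was thus the 1 Tak1het library with a mitochondrial share under 1%. WT also had 1 such library, so the comparison within low share is of 1 library with 1 and is not given.

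In Tbk1het Tak1het over Tbk1het, 47 of 50 members were called lower, against 8.24% of all tested genes, with a median of -3.21. All 50 fold changes were below 0, and all 50 had an unadjusted p under 0.05 by edgeR. Aspm, Ttk and Cks2 were not called after adjustment. The groups did not overlap for 46 members (16.4% of all tested genes lower without overlap). The largest fold changes were those of Mastl (-5.29), Mki67 (-5.06) and Shcbp1 (-4.95), and 43 of the 47 calls remained with each library left out. Border macrophage and monocyte markers were also lower, with 2 of 6 tested called and a median of -1.23, at sums of 490.2 to 526 CPM in Tbk1het Tak1het against 586 to 1342 in Tbk1het. Of 10 microglial markers 3 were called lower, with a median of -0.21. The part of these cell types in the result was not tested. A covariate for the mitochondrial share left 1 call, with a median of -1.92; no library of Tbk1het had a share under 1%, so no value within the low-share libraries could be had. In Tbk1het Tak1het over Tak1het, 11 members fell (2.05% of all tested genes), and the median was -1.57. They were Mki67 (-3.79), Ccnb2 (-3.08), Ccnb1 (-2.85), Kif11 (-2.76), Ube2c (-2.73), Shcbp1 (-2.60), Birc5 (-2.49), Ccna2 (-2.35), Aurkb (-2.01), Bub1b (-1.88) and Kif20b (-1.60). Groups did not overlap for 27 members, all lower in Tbk1het Tak1het (12.5% of all tested genes), and Ncapd2 alone had a fold change above 0 (0.19). Leaving out Tak1het replicate 1 gave 21 calls, replicate 2 gave 3 and replicate 3 gave 6. Leaving out Tbk1het Tak1het replicate 1 gave 2 and replicate 2 gave 4. Mki67 and Ube2c kept their calls in edgeR with each library left out. A covariate for that share left 3 calls (median -0.94). Within the 8 libraries of low share, where Tak1het has 1 library, the median was -0.68. By limma-voom 0 members were called, with 16 at an unadjusted p under 0.05, and by DESeq2 24.

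The interaction asks whether the effect of Tbk1+/- differs with and without the Tak1 allele. For 18 of 50 members the effect of Tbk1+/- was lower beside Tak1ΔM/+ than beside WT Tak1, against 1.21% of all tested genes, and the log2 difference was below 0 for all 50, with a median of -2.45. Mki67 had the largest (-5.34, adjusted p = 0.00911). By construction the interaction carries the spread of all 4 genotypes, that of Tbk1het included. The count was 39 without Tbk1het replicate 2, 26 without Tak1het replicate 1, and from 3 to 7 without any other of the 12 libraries. The share of all tested genes called in these fits was not computed. Mki67 and Ube2c kept their calls with each library left out. A fit on the 12 libraries alone made 7 calls. A covariate for the mitochondrial share left 0 calls by edgeR, 17 at an unadjusted p under 0.05, with a median of -1.15, and without it limma-voom called 1 and DESeq2 32.

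In Tbk1het Ripk1hom over Tbk1het, 0 members were called by edgeR, 6 by DESeq2 and 0 by limma-voom, against 0.238% of all tested genes called lower and 0.283% higher by edgeR, and 24 had an unadjusted p under 0.05. All 50 fold changes were below 0, with a median of -1.08. With a covariate for the mitochondrial share the median was -0.17, and edgeR called 0 members, with 0 at an unadjusted p under 0.05. Cenpa, Ncapd2 and Mad2l1 were lower without overlap, against 8.04% of all tested genes. Without Tbk1het replicate 2, 18 members were called, and 1 without Tbk1het Ripk1hom replicate 2. The share of all tested genes called in these fits was not computed. Replicate 2 was the highest of the 3 Tbk1het Ripk1hom libraries for 39 members. It was also the 1 with low Tbk1 RNA and the 1 with a mitochondrial share over 1%, at 1.57% against 0.451% and 0.449% in replicates 1 and 3. Against WT, Tbk1het Ripk1hom had 0 members called by edgeR, DESeq2 or limma-voom and 0 with an unadjusted p under 0.05 by edgeR, with a median of -0.10 over a range from -0.82 to 1.02. Cdc20 and Plk1 were lower without overlap, against 5.18% of all tested genes. No gene at all was called in that comparison (0%).

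Other cell cycle genes were read in the same fit, in Tbk1het Tak1het over WT. Of all tested genes 3.9% were called lower there. Among 57 further mitosis genes 17 fell and none rose, with a median of -0.97. Ncapg2 had 13.1, 12.7 and 15.02 CPM in Tbk1het Tak1het, against 52.6, 36.3 and 31.1 in WT. Ncapg2, which encodes a condensin II subunit, had a log2 fold change of -1.55 (adjusted p = 0.00187). Cdc25b had 5.72, 4.62 and 4.72 CPM in Tbk1het Tak1het, against 24.4, 19.4 and 10.7 in WT. It encodes a phosphatase that activates CDK1 and had -1.85 (adjusted p = 0.00542), overlapping in no library. Cks1b had 6.04, 6.53 and 5.37 CPM in Tbk1het Tak1het, against 13.03, 18.02 and 10.9 in WT. This CDK subunit had -1.23 (adjusted p = 0.044). Of 34 genes of DNA replication and S phase, 3 fell and the median was -0.38. They were Tk1, which encodes thymidine kinase (-1.20, adjusted p = 0.0249), Ccne2, which encodes cyclin E2 (-2.52, adjusted p = 0.0295), and Cdc45, which encodes a part of the replicative helicase (-1.36, adjusted p = 0.035). Summed, the S-phase list was at 731 to 766 CPM in Tbk1het Tak1het and 793 to 956 in WT, below the lowest WT library by a small margin. Of 12 cyclins, kinases and inhibitors of G1 phase, Cdkn1b, which encodes the CDK inhibitor p27, fell (-1.25, adjusted p = 0.0317). Of 23 transcription factors of cell cycle genes, 1 was called lower, a share near that of all tested genes. This was E2f2 (-2.50, adjusted p = 0.041), which was at 0.848, 0.338 and 0.249 CPM in Tbk1het Tak1het, against 1.83, 4.65 and 1.91 in WT. In Tbk1het Tak1het replicates 2 and 3 it was at or near the floor of 3 counts. Of 5 colony stimulating factors and receptors edgeR called 0, with 1 at an unadjusted p under 0.05. Csf1r, the receptor that microglia need to survive, had 1981, 1904 and 2092 CPM in Tbk1het Tak1het and 2183, 1961 and 2152 in WT. In Tbk1het Tak1het Ripk1het over Tbk1het Tak1het, where 1.84% of all tested genes were called higher, 12 of the 57 further mitosis genes rose (median 1.04). Of the S-phase list 1 of 34 rose, a share near that of all genes, and 1 of 12 of the G1 list. These were Tk1 (1.61, adjusted p = 0.00827) and Cdkn2d (1.20, adjusted p = 0.0307).

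**Figure D5:**
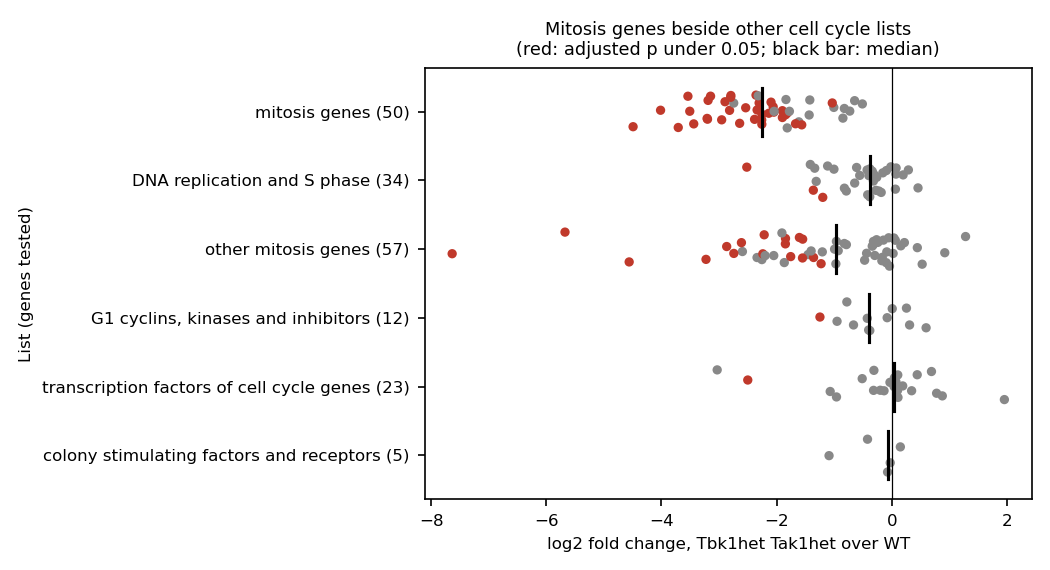
Log2 fold changes in Tbk1het Tak1het over WT (x axis) of the genes of 6 lists (rows, with the number of genes tested); each point is a gene, red marks an adjusted p under 0.05, and the black bar is the list's median. The medians lie at -2.26 for the 50 mitosis genes, -0.97 for the other mitosis genes and -0.38 for the S-phase genes.

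The library kit is unstranded, and reads from genes that overlap cannot be assigned between them. Exons of 14 members share bases with those of another gene in GENCODE M21, and 9 of these with a protein-coding gene on the opposite strand. The largest shares of member exons were 29.3% for Kif20a with Cdc23, 22.8% for Ube2c with Tnnc2, which had 0 counts, 15.1% for Kif4 with Pdzd11, 13.4% for Ncapg with Lcorl and 12.5% for Ccna2 with Exosc9. Of the 8 such partners that were tested, none was called in Tbk1het Tak1het over WT by edgeR, and their log2 fold changes ran from -1.33 for Oip5 beside Nusap1 to 0.95 for 9930104L06Rik beside Cdca8. Pseudogene copies named after a member with the ending -ps are annotated for Ccnb1, Ccnb2 and Kif4, and copies under other names were not sought. How reads shared with such copies were counted is not given in the sources used here.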

How the data were processed

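The deposited table holds raw read counts per gene. Per the submitters' processing notes reads were aligned with STAR to mm10 and counted with featureCounts, while the labels' protocol names RSEM; the counts are whole numbers, and versions, annotation and strand setting are not given in the sources used here. Per the labels' protocols, microglia were shaken off mixed cultures after 7 and 7 days, and 1 ng of RNA was amplified by Smart-seq2 with oligo(dT) priming and 12 PCR cycles, without molecular identifiers. Amplified copies are therefore not independent molecules.

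All 18 libraries were fitted together with edgeR 4.0.16 (limma 3.58.1, R 4.3.3), after its default filter on low counts, with TMM scaling and the quasi-likelihood test, adjusted by the Benjamini-Hochberg method over 13447 genes at 0.05. SE is the size of the log2 fold change divided by the square root of the F statistic of its test, an approximation. The fit was tested on simulated data with the same dispersion in all genes and genotypes. That test does not cover the unequal spread between these genotypes. Alternatives were DESeq2 1.42.0, its size factors, limma-voom, no filter, a mean of at least 5 CPM, a replicate block, the mitochondrial share as a covariate and leaving out libraries. The fits without the 5 libraries of WT-like Tbk1 and within libraries of low or high mitochondrial share were added after seeing the data. The members, gene lists and tests were chosen with earlier results of these data known. Values in every library are given for Mki67 and for the 2 members with the highest mean CPM in each of 7 roles (15 in all). Of each further list, up to 3 called genes of highest mean CPM are named. Members with the largest or smallest fold changes, with directions of their own or with a printed promoter are also named, and other members named for their role were chosen after their values were seen. Promoters shown are those of the 3 members of highest CPM with a CHR match and the highest with none. Members were placed by GENCODE M21 (GRCm38). All columns of the table were used (0 left out).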

Additional observations from a re-analysis of the deposited data

Results flagged for a closer look

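The effect of Tbk1+/- differed between the presence and absence of Tak1ΔM/+ for 18 of 50 members, by the interaction term of edgeR with an adjusted p under 0.05 (1.21% of all tested genes were called lower). Each value is the log2 fold change of Tbk1het Tak1het over Tak1het minus that of Tbk1het over WT. The difference was -3.97 for Ccnb2, -3.49 for Ccnb1, -3.15 for Ccna2 and -1.52 for Cdk1, the cyclins and kinase of mitotic entry. It was -3.81 for Ube2c, -2.73 for Bub1b and -2.08 for Mad2l1 of the checkpoint and anaphase promotion, and -3.51 for Birc5 and -2.49 for Aurkb of the passenger complex. Among spindle and centromere genes it was -3.69 for Kif11, -3.53 for Ckap2l, -2.60 for Kif20b and -1.44 for Cenpa. Among genes of chromosome structure it was -5.34 for Mki67, -4.24 for Ncapg and -2.85 for Top2a, and among cytokinesis genes -3.84 for Shcbp1 and -3.45 for Prc1. The mitochondrial share of counts was 0.367% to 0.512% in Tbk1het Tak1het, 1.82% to 2.2% in Tbk1het, 0.453% to 1.5% in Tak1het and 0.671% to 1.62% in WT. With that share as a covariate edgeR called 0 members, with 17 at an unadjusted p under 0.05. Y-linked genes summed to at most 2.78 CPM in Tak1het, 62.3 to 207 in Tbk1het, 68.0 to 89.9 in Tbk1het Tak1het and 0 to 116 in WT. The part of sex was not tested. Leaving out Tbk1het replicate 2 gave 39 calls and Tak1het replicate 1 gave 26, and leaving out any other of the 12 libraries gave 3 to 7, with Mki67 and Ube2c called each time. The fit on the 12 libraries alone called 7 members, limma-voom 1 and DESeq2 32.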

How the results depend on the processing

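The median log2 fold change of the 50 members kept its sign under every alternative in Tbk1het Tak1het over WT, over Tbk1het and over Tak1het and in Tbk1het Tak1het Ripk1het over Tbk1het Tak1het, while the counts of calls moved. With DESeq2, 2 members were called in Tbk1het over WT, 24 in Tbk1het Tak1het over Tak1het, 6 in Tbk1het Ripk1hom over Tbk1het and 32 in the interaction. With limma-voom the counts were 18 for any genotype, 8 in Tbk1het Tak1het over WT, 0 over Tak1het (16 at an unadjusted p under 0.05), 1 in Tbk1het Tak1het Ripk1het over Tbk1het Tak1het and 1 in the interaction. Without a filter on low counts they were 18 in Tbk1het over WT, 6 in Tak1het over WT, 40 in Tbk1het Tak1het over Tak1het, 45 in Tbk1het Tak1het Ripk1het over Tbk1het Tak1het, 1 in Tbk1het Tak1het Ripk1het over WT, 29 in Tbk1het Ripk1hom over Tbk1het and 45 in the interaction. That fit tested 26917 genes. The share of all of them called was not computed, so whether these counts are particular to the members cannot be read from them. With a mean of at least 5 CPM, 1 was called in Tbk1het Ripk1hom over Tbk1het.

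With the mitochondrial share as a covariate the counts were 7 for any genotype, 11 in Tbk1het Tak1het over WT, 1 over Tbk1het, 3 over Tak1het and 0 in the interaction, and Tpx2 (-0.0406) and Ccna2 (-0.115), which were not called, turned below 0 in Tbk1het over WT. Within the 8 libraries of low share, Tak1het over WT is 1 library against 1. Tbk1het Tak1het over WT, Tbk1het Tak1het over Tak1het and Tbk1het Tak1het Ripk1het over Tbk1het Tak1het each have an arm of 1 library there. Such fits assume that this library varies like the other genotypes. They say little of the genotypes, and their counts of calls are not given. The interaction had 7 with only the libraries compared, and 7 without the 5 libraries of WT-like Tbk1. Leaving out each library gave 23 to 43 calls for any genotype, 17 to 29 in Tbk1het Tak1het over WT, 44 to 49 over Tbk1het, 2 to 21 over Tak1het, 4 to 27 in Tbk1het Tak1het Ripk1het over Tbk1het Tak1het, 3 to 39 in the interaction, 0 to 8 in Tbk1het over WT and 0 to 18 in Tbk1het Ripk1hom over Tbk1het. Apart from the fits with fewer genes or libraries, the cause was not tested.

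Of 45 correlations of deviations between same-numbered libraries, from -0.194 to 0.141, 5 were over 0.1. Low values do not exclude that libraries were paired, and the submitters' own numbers in the column names were not tried. With a replicate block the counts were 37 for any genotype, 33 in Tbk1het Tak1het over WT, 47 over Tbk1het, 10 over Tak1het, 24 in Tbk1het Tak1het Ripk1het over Tbk1het Tak1het, 12 in the interaction and 0 in the others. Depth limits the members near 3 counts, which are 0.137 to 0.338 CPM.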
